A study of Homo sapiens with 12 samples.

Results

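TGF-beta signaling begins with 3 secreted ligands, encoded by *TGFB1*, *TGFB2* and *TGFB3*, which are stored as latent complexes and act once released. Active ligand binds the type II receptor TGFBR2, which recruits and phosphorylates the type I receptor TGFBR1, and TGFBR1 then phosphorylates SMAD2 and SMAD3. These receptor-regulated SMADs join the common partner SMAD4, enter the nucleus and act on transcription together with other factors, while the inhibitory SMAD6 and SMAD7 are induced by the pathway family and dampen it. In the nervous system the pathway is known for roles in neuronal survival, axon formation and synapse development, and SMAD4 is shared with the bone morphogenetic protein (BMP) branch.

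These 10 genes were examined in human neurons with and without knockdown of *SMN*, the gene whose loss causes spinal muscular atrophy. They were chosen by gene symbol, with the *SMN* knockdown results of both deposited tables already known, and all 10 were among the 16093 genes listed in both tables (16406 genes for iMNs and 19016 for i3Ns). iMNs were motor neurons made with small molecules from 1 induced pluripotent stem cell line carrying an HB9–Td-Tomato reporter and sorted on that reporter, and i3Ns were glutamatergic neurons made from H1 human embryonic stem cells by inducible NGN2. Both received a lentiviral shRNA that was either scrambled (SCR) or directed against *SMN1* and *SMN2* (*SMN*-KD), with 3 libraries for each of the 4 groups and 12 libraries in all. Each neuron type was thus 1 stem cell line and 1 differentiation method, and GEO's labels do not say whether the libraries came from separate cultures.

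The measurement available for each gene was the authors' mean normalized count over the 6 libraries of a neuron type, 3 SCR and 3 *SMN*-KD together. Values of single libraries were not used here, so no value below has a replicate spread, an interval or a test, the depth of each library is unknown, and the effect of *SMN*-KD on these genes was not analysed here. The means support a description of how much of each transcript the neurons of each type held. To set the separately normalized tables side by side, each mean was divided by the sum of all means in its table and expressed per 1000000, which is written CPM here and refers to the pooled mean, not to a library. Neuron type, stem cell line, differentiation method and table cannot be told apart in any difference between iMNs and i3Ns. Since *SMN*-KD libraries are part of each mean, a response to *SMN*-KD that differs by neuron type cannot be told apart from these either. A lower level in bulk RNA can mean fewer expressing cells or less RNA per cell. The pooled means cannot check the knockdown itself. They were 585 for *SMN1* and 588 for *SMN2* in iMNs, and 369 and 709 in i3Ns, and reads of these near-identical copies are hard to assign. In each neuron type the *SMN1* value sums 2 identifiers and the *SMN2* value 3.

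The labels of the neurons were compared with marker genes. Neuronal transcripts were abundant in both types, with *STMN2*, which encodes a growth-associated tubulin-binding protein, at 1872 CPM in iMNs and 1867 in i3Ns. Markers of the motor neuron label were split. The cholinergic transporters *SLC5A7* (195 against 54.9 CPM) and *SLC18A3* (71.9 against 41.4) were higher in iMNs, and *CHAT*, the acetylcholine-synthesizing enzyme, was near level (12.3 against 11.7). *MNX1*, which encodes HB9 itself, was at 9.92 CPM in iMNs and 50.6 in i3Ns, and the motor neuron transcription factor *ISL1* was at 38.4 and 317, so for these 2 genes the values went against the labels. The glutamatergic markers *SLC17A6* (13.7 and 249 CPM), *SLC17A7* (1.16 and 144) and *TBR1* (0.235 and 40.0) were higher in i3Ns. *CUX2*, on the same list, was near level (40.0 and 45.1).

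**Figure D1:**
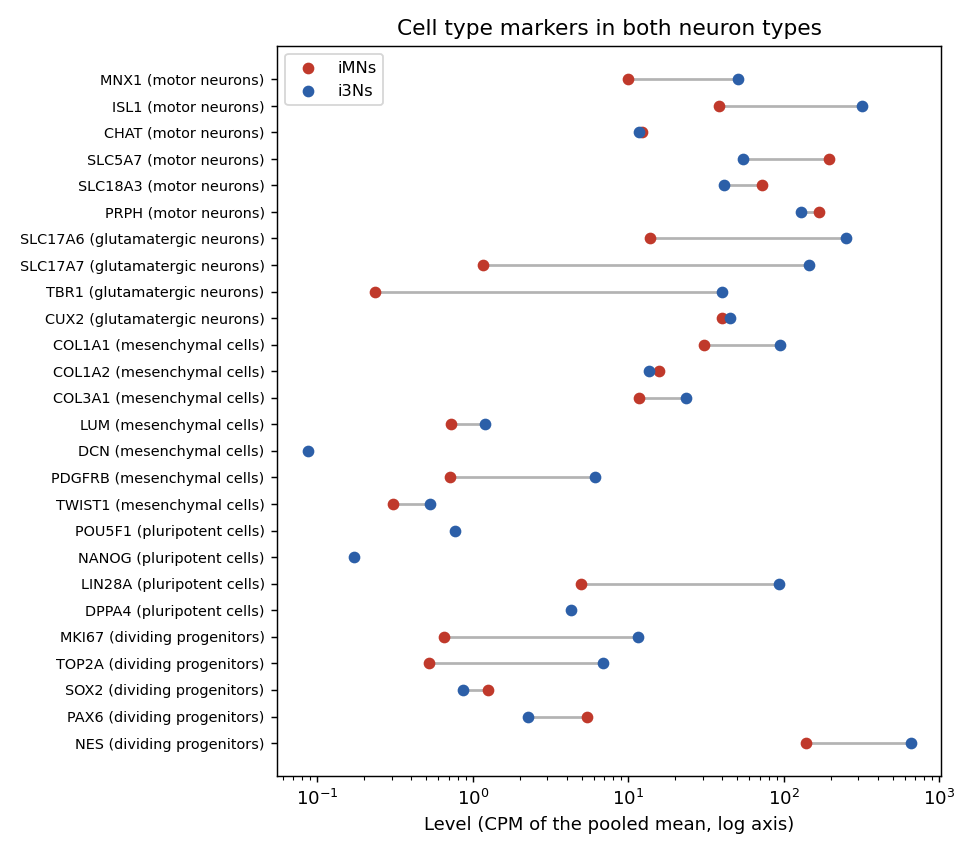
CPM (log axis) of cell type markers in iMNs (red) and i3Ns (blue), each point 1 mean over 6 libraries; a marker with 1 point was listed only for i3Ns. *MNX1* and *ISL1* lie further right in i3Ns, and *SLC5A7* and *SLC18A3* further right in iMNs.

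Markers of other cells that make or answer TGF-beta were also read. The 7 mesenchymal markers summed to 59.8 CPM in iMNs, where 6 were listed, and to 139 in i3Ns, where all 7 were listed, with *COL1A1* at 30.5 and 93.9, *PDGFRB* at 0.711 and 6.12 and *COL1A2* the other way at 15.8 and 13.6. The 5 markers of dividing progenitors summed to 147 and 680, nearly all of it *NES* (139 and 659). *MKI67* stood at 0.653 and 11.6 and *TOP2A* at 0.519 and 6.90, while *PAX6* (5.40 and 2.26) and *SOX2* (1.24 and 0.863) were higher in iMNs. Of 4 pluripotency markers, 1 was listed for iMNs and 4 for i3Ns, with summed levels of 4.96 and 98.8, of which *LIN28A* made up 93.6 in i3Ns, while *POU5F1* stood at 0.764 and *NANOG* at 0.172. The *POU5F1* value sums 4 identifiers. The 6 glial markers summed to 8.08 and 29.6, with *GFAP* and *AQP4* listed in neither table. The 4 markers of microglia and endothelium summed to 0 and 0.169, with none listed for iMNs. The lowest listed mean was 7.73 in iMNs and 1.37 in i3Ns, so a gene listed only for i3Ns can reflect that lower floor. *CX3CR1* and *PECAM1*, with i3N means of 5.95 and 1.65, lay under the iMN floor, whereas *DPPA4*, listed only for i3Ns, had a mean of 193. The mesenchymal, progenitor, pluripotency and glial sums were higher in i3Ns, the direction taken by 9 of the 10 TGF-beta genes below, but the first 3 of these sums were carried largely by *COL1A1*, *NES* and *LIN28A*, and not every marker went that way. Their part in the differences below was not tested.

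The promoters of the 3 ligands are shown first, because the order of the ligands differed between the neuron types, with those of the 2 inhibitory SMADs, whose genes are feedback targets of the pathway family. All sequences are RefSeq, GRCh38.p14, the 250 bases before the annotated start of the MANE Select transcript (the reference transcript agreed by RefSeq and Ensembl), read 5′ to 3′ on the gene's strand. Capitals mark TATAAA, the GC box GGGCGG and the palindromic SMAD-binding sequence GTCTAGAC, each on either strand. *TGFB1* (chr19:41353923-41354172, minus strand) lies on chromosome 19, *TGFB2* (chr1:218345086-218345335, plus strand) on chromosome 1, *TGFB3* (chr14:75981996-75982245, minus strand) on chromosome 14, *SMAD6* (chr15:66701986-66702235, plus strand) on chromosome 15 and *SMAD7* (chr18:48950966-48951215, minus strand) on chromosome 18. Other annotated *TGFB3* transcripts start further upstream, so its window lies within the gene.
TGFB1 promoter: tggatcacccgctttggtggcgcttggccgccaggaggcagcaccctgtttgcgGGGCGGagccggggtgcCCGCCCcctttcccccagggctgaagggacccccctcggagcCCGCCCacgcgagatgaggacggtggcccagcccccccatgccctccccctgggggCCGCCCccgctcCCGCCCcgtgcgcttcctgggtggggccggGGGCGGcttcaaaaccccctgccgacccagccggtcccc
TGFB2 promoter: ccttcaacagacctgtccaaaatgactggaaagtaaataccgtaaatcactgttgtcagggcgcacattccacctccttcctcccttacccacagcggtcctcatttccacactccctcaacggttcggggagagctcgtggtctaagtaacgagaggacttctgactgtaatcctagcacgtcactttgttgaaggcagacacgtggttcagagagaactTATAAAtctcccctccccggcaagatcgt
TGFB3 promoter: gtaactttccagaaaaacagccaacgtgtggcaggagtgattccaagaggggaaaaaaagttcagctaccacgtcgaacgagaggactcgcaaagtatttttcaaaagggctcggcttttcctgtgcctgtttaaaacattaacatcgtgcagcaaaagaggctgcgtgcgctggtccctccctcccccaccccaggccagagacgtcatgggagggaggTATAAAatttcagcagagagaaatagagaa
SMAD6 promoter: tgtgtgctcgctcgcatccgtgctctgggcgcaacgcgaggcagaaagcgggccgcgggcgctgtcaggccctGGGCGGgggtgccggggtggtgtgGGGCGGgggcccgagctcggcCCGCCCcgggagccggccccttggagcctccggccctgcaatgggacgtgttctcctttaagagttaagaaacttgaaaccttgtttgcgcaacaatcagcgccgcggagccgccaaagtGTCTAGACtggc
SMAD7 promoter: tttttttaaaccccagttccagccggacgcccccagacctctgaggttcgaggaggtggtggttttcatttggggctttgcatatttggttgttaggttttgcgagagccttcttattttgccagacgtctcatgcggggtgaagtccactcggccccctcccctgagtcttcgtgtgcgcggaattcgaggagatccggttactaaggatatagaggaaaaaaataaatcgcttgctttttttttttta

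The ligand promoters differed in kind. That of *TGFB1* held 6 GC boxes, no TATAAA and 76.8% G and C. Those of *TGFB2* and *TGFB3* each held 1 TATAAA, beginning 29 and 30 bases before the start, with no GC box and 50.4% and 49.2% G and C. Over 15109 genes with such a window, the median was 63.2% G and C, 59.6% held a GC box and 9.05% held TATAAA, and among the 10 pathway genes 6 held a GC box and 2 held TATAAA. The palindrome GTCTAGAC was in 1 of the 10 windows, that of *SMAD6*, beginning 12 bases before the start, against 0.212% of all windows. The shorter element CAGAC, which does not overlap the palindrome on either strand, was in 3 of 10 (*TGFB2* and *SMAD7* with 2 each, *TGFBR1* with 1) against 36.5% of all windows. The AP-1 site TGANTCA was in 0 of 10 against 4.77%. These are matches of letters, not measured binding sites.

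The 3 ligand transcripts were at low to middle levels in both neuron types, with *TGFB2* the leading ligand in iMNs only. *TGFB1* (ENSG00000105329, chr19:41301587-41353922, minus strand, 7 exons), the most widely expressed ligand in the body, had a mean normalized count of 92.6 in iMNs and 448 in i3Ns, or 2.14 and 9.94 CPM. *TGFB2* (chr1:218345336-218444619, plus strand, 7 exons), the ligand often noted in developing neurons, had 786 and 378, or 18.1 and 8.39 CPM. *TGFB3* (chr14:75958097-75983011, minus strand, 7 exons) had 198 and 728, or 4.57 and 16.2 CPM. On the CPM scale *TGFB1* was thus 4.65-fold and *TGFB3* 3.53-fold higher in i3Ns, and *TGFB2* was 2.16-fold higher in iMNs. Among all genes of its table, *TGFB2* stood at the 47.9th percentile in iMNs and the 44.5th in i3Ns, *TGFB1* at the 21.4th and 46.4th, and *TGFB3* at the 28.5th and 53.6th.

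**Figure D2:**
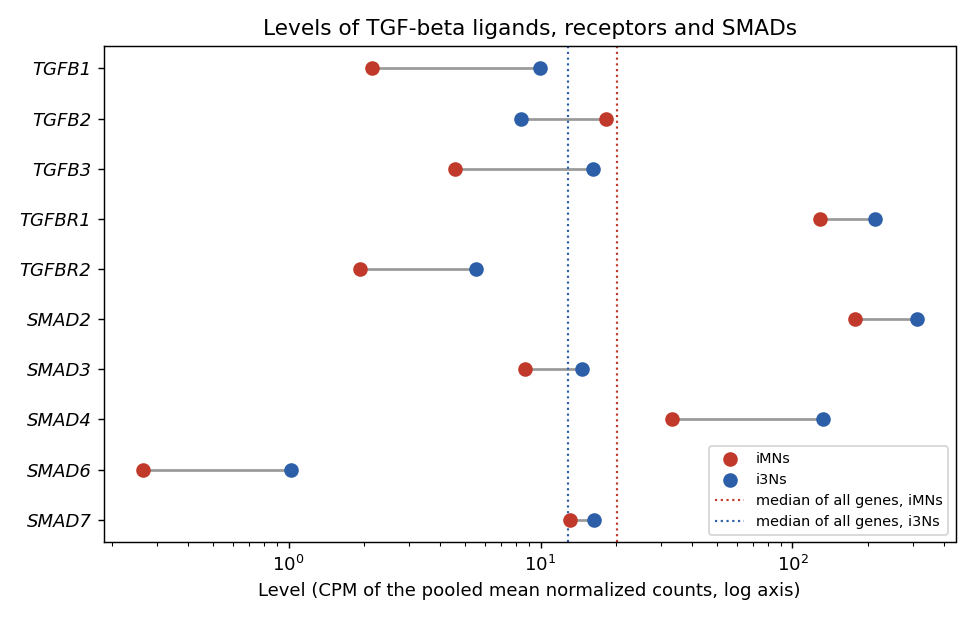
CPM (log axis) of the 10 genes in iMNs (red) and i3Ns (blue), each point 1 mean over 6 libraries, with dotted lines at the median of all genes of each table. Every gene except *TGFB2* lies further right in i3Ns, and the values are not adjusted for transcript length.

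Levels of different genes can be compared only per length, so each mean was divided by the length of the MANE Select transcript and scaled to sum to 1000000 over the table (per-length level). On this scale *TGFB2* made up 59.5% of the summed ligand level in iMNs, *TGFB3* 25.7% and *TGFB1* 14.8%. In i3Ns *TGFB3* made up 48.5%, *TGFB1* 36.8% and *TGFB2* 14.7%. The ratio of *TGFB2* to *TGFB1* was 4.02 in iMNs and 0.400 in i3Ns. Dividing by coding length alone, a choice made after the data were seen, raised the *TGFB2* share to 72.6% in iMNs and 23.9% in i3Ns. With all annotated exons joined, *TGFB2* made up 66.2% in iMNs, while in i3Ns *TGFB3* (41.1%) and *TGFB1* (40.5%) were nearly equal. *TGFB2* was thus first in iMNs and last in i3Ns with each length. In i3Ns the ratio of *TGFB3* to *TGFB1* was above 1 with each length, but its size depended on the length, from 1.02 to 1.54. The summed per-length level of the 3 ligands was 16.1 in iMNs and 31.3 in i3Ns.

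**Figure D3:**
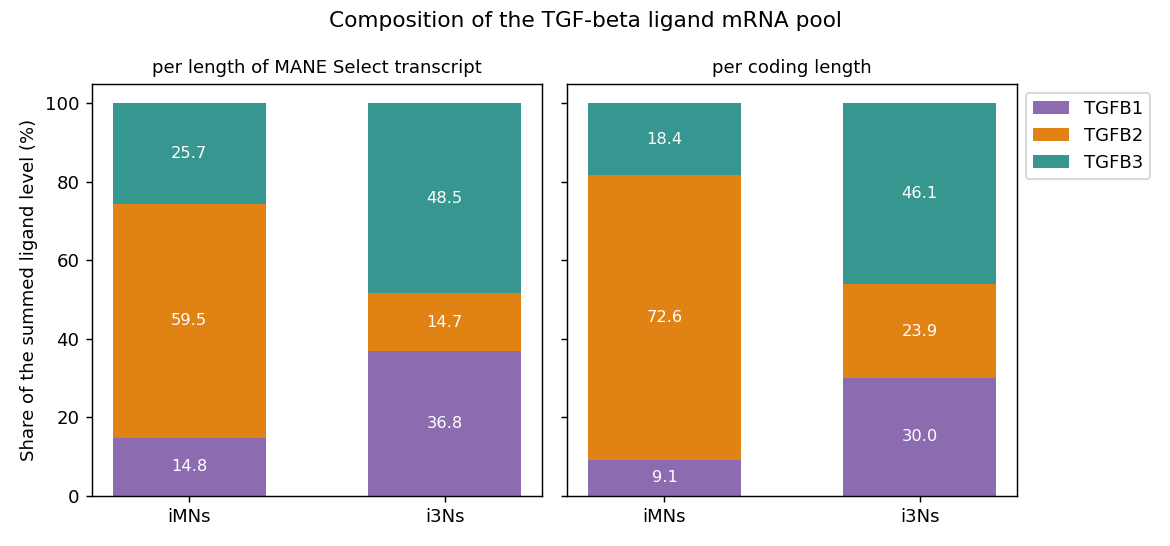
Share (%) of each ligand in the summed per-length level of *TGFB1*, *TGFB2* and *TGFB3* in iMNs and i3Ns, dividing by the length of the MANE Select transcript (left) or of its coding sequence (right). *TGFB2* is the largest segment in iMNs and *TGFB3* the largest in i3Ns on both scales.

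The receptors were very unequal. *TGFBR1* (chr9:99104038-99154192, plus strand, 9 exons), the type I receptor kinase that phosphorylates SMAD2 and SMAD3, had a mean normalized count of 5587 in iMNs and 9599 in i3Ns, or 129 and 213 CPM, at the 88.8th and 95.2nd percentile of the tables. *TGFBR2* (chr3:30606601-30694142, plus strand, 7 exons), the ligand-binding type II receptor, had 82.9 and 249.7, or 1.91 and 5.54 CPM, at the 20.3rd and 40.2nd percentile. Ranked per length as well, *TGFBR1* stood at percentile 77.6 in iMNs and 89.4 in i3Ns and *TGFBR2* at percentile 14.2 and 34.5, so that the type I receptor was above the median gene and the type II receptor below it in both neuron types. Per length, *TGFBR1* exceeded *TGFBR2* 47.0-fold in iMNs and 26.8-fold in i3Ns. With coding lengths these ratios were 75.9 and 43.3. Between neuron types *TGFBR2* was 2.90-fold and *TGFBR1* 1.65-fold higher in i3Ns, on the CPM scale.

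The SMADs that carry the signal were all listed at well over the lowest mean of each table. *SMAD2* (chr18:47808957-47931146, minus strand, 11 exons) had 7652 in iMNs and 14024 in i3Ns, or 177 and 311 CPM, at the 92.4th and 97.3rd percentile. These percentiles are not adjusted for length. Ranked per length, *SMAD2* stood at percentile 44.2 in iMNs and 63.1 in i3Ns. *SMAD3* (chr15:67063763-67195173, plus strand, 9 exons), which unlike the main form of SMAD2 binds DNA directly, had 376 and 660, or 8.67 and 14.7 CPM. The 2 receptor-regulated SMADs kept nearly the same proportion in both neuron types, with *SMAD2* over *SMAD3* at 3.80 in iMNs and 3.97 in i3Ns per length. The size of that ratio depended on the length used, because the MANE Select transcript of *SMAD2* has 34626 bases, of which 1401 are coding. With coding lengths the ratio was 18.5 and 19.3.

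*SMAD4* (chr18:51028528-51085045, plus strand, 12 exons), the common partner, had a mean normalized count of 1446 in iMNs and 5962 in i3Ns, or 33.4 and 132 CPM, a 3.96-fold higher level in i3Ns. It stood at the 61.2nd percentile of the iMN table and at the 90.4th of the i3N table. Ranked per length, it stood at percentile 38.5 in iMNs and 74.8 in i3Ns. *SMAD4* differed between neuron types by more than its receptor-regulated partners did, at 1.76-fold for *SMAD2* and 1.69-fold for *SMAD3*, all higher in i3Ns. Per length, *SMAD4* over *SMAD3* was 2.84 in iMNs and 6.65 in i3Ns. Whether *SMAD2* or *SMAD4* was the more abundant could not be settled for i3Ns, since *SMAD2* over *SMAD4* was 0.596 with MANE Select lengths, 1.27 with all annotated exons joined and 2.78 with coding lengths. In iMNs the same ratio was 1.34, 2.85 and 6.25, above 1 with each length.

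The inhibitory SMADs lay far apart. *SMAD7* (chr18:48919853-48950965, minus strand, 4 exons), which binds the activated type I receptor and brings ubiquitin ligases to it, had a mean normalized count of 566 in iMNs and 737 in i3Ns, or 13.1 and 16.4 CPM. It differed least of the 10 genes between neuron types, at 1.25-fold higher in i3Ns. *SMAD6* (chr15:66702236-66782849, plus strand, 4 exons), the inhibitor more closely tied to BMP signaling, had 11.4 and 46.0, or 0.264 and 1.02 CPM, at the 3.79th and 26.8th percentile. Its iMN mean was close to the lowest mean in that table, 7.73, so its 3.87-fold difference rests on the smallest counts of the 10 genes. Per length, *SMAD7* exceeded *SMAD6* 56.7-fold in iMNs and 18.3-fold in i3Ns.

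Ordered by per-length level in iMNs, the 10 genes ran from *TGFBR1* (61.5) through *SMAD2* (15.8), *SMAD7* (12.1), *SMAD4* (11.8), *TGFB2* (9.57), *SMAD3* (4.15), *TGFB3* (4.13), *TGFB1* (2.38) and *TGFBR2* (1.31) to *SMAD6* (0.213). In i3Ns the order was *TGFBR1* (106), *SMAD4* (48.6), *SMAD2* (28.9), *SMAD7* (15.8), *TGFB3* (15.2), *TGFB1* (11.5), *SMAD3* (7.30), *TGFB2* (4.60), *TGFBR2* (3.94) and *SMAD6* (0.859). With no replicate spread, neighbours in either order cannot be called different, and steps as small as that from *SMAD3* to *TGFB3* in iMNs (1.01-fold) carry no order. *TGFBR1* stood first and *TGFBR2* and *SMAD6* last in both neuron types with MANE Select lengths, whereas with coding lengths *SMAD2* stood first, at 159 in iMNs and 291 in i3Ns. The largest change of place was that of *TGFB2*, the first ligand in iMNs and the last in i3Ns.

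The 10 genes were then set against all genes. A gene was counted as higher or lower in i3Ns when its CPM differed by 2-fold or more, a description of size and not a test. In i3Ns 5 of the 10 were higher past 2-fold (*TGFB1*, *SMAD4*, *SMAD6*, *TGFB3* and *TGFBR2*), against 10.1% of the 16093 genes in both tables. Only 1 of the 10 was lower past 2-fold (*TGFB2*, at -1.11 on the log2 scale), against 14.5% of genes. The other 4 were within 2-fold. Of the 10, 9 had a log2 ratio above 0, against 50.9% of all genes, and their median was 1.18 against 0.01 for all genes. The 10 were selected on knowledge of these data and are too few to call this particular to the pathway.

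**Figure D4:**
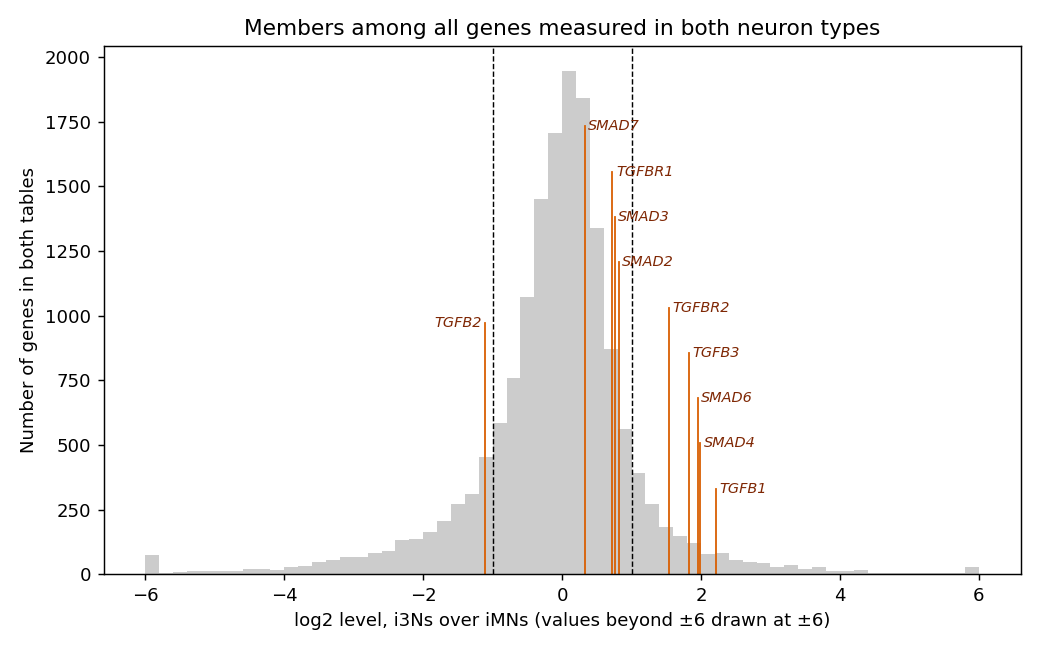
Number of genes by log2 level in i3Ns over iMNs for the 16093 genes in both tables (grey), with orange lines at the 10 genes and dashed lines at 2-fold; the height of the orange lines has no meaning. Of the 10 genes, 5 lie right of the upper dashed line and *TGFB2* lies left of the lower one.

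Further genes of the pathway were read from 7 lists, 90 listings in all, of which 76 were in both tables. They did not share the direction of the 10 genes. Past 2-fold, 17 (22.4%) were higher and 19 (25.0%) lower in i3Ns, against 10.1% and 14.5% of all genes, with a median log2 ratio of 0.13. Genes named below without being among the highest or most different of their list were named after their values were seen.

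Genes that hold the ligands latent or release them were in both tables in 11 of 12 cases. Past 2-fold, 2 were higher and 2 lower in i3Ns, against 10.1% and 14.5% of all genes, with a median log2 ratio of -0.10. *FURIN*, the protease that cleaves the ligand precursors, was near level at 55.0 CPM in iMNs and 59.0 in i3Ns, as was *ITGAV*, an integrin subunit that binds latent ligand, at 20.4 and 24.4. Its partner *ITGB8* was lower in i3Ns (26.7 against 7.02 CPM, log2 -1.93), as was *LRRC32*, which holds latent TGF-beta at the cell surface (4.89 against 0.655, log2 -2.90). *LTBP2* and *THBS1* were the 2 higher in i3Ns, at log2 1.90 and 1.43.

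Of 12 other receptors of the superfamily listed, 9 were in both tables, 1 higher and 1 lower past 2-fold in i3Ns, near the share over all genes, with a median log2 ratio of 0.56. The BMP type II receptor *BMPR2* stood at 373 and 388 CPM and the activin type I receptor *ACVR1B* at 222 and 220. The activin type II receptor *ACVR2B* stood at 214 and 406. *TGFBR3*, the co-receptor betaglycan that presents TGF-beta2 to the type II receptor, was low in both (0.754 and 1.54 CPM, log2 1.03), and the lower gene was *ACVR1C* (1.10 and 0.320 CPM, log2 -1.78).

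Of 19 other ligands of the superfamily listed, 12 were in both tables. Of these 12, 7 were lower and 2 higher past 2-fold in i3Ns, against 14.5% and 10.1% of all genes, with a median log2 ratio of -1.27. Left out of these counts were *GDF1*, listed only for iMNs (28.2 CPM), and *INHBE*, listed only for i3Ns (14.3 CPM, mean 645), among others. *BMP7* stood at 122 CPM in iMNs and 1.79 in i3Ns (log2 -6.09), and *INHBA*, the activin A subunit, at 8.16 and 0.533 (log2 -3.93). *GDF11* was near level at 115 and 133. The 2 higher were *BMP1*, a protease despite its name, at 10.3 and 21.5 (log2 1.06), and *BMP5*, at 0.411 and 2.21 (log2 2.42). Of 7 antagonists in both tables, 3 were lower and 1 higher, against the same shares. The BMP antagonist *NOG* stood at 9.40 and 0.937 CPM (log2 -3.33) and *FSTL3* at 17.7 and 7.21 (log2 -1.30), while *FSTL1* stood at 6.69 and 131 (log2 4.29). *GREM1* stood at 1.56 and 0.0562 (log2 -4.80), but its i3N mean of 2.53 was near the lowest mean of that table, 1.37, and its iMN value sums 2 identifiers against 1 in i3Ns, so the size of that ratio is uncertain.

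Among 12 BMP SMADs and SMAD partners in both tables, 3 were higher (*SP1*, *TGIF1* and *TGIF2*) and 3 lower past 2-fold in i3Ns. The shares of all genes were 10.1% and 14.5%, and the median log2 ratio of the list was 0.07. The lower genes were the BMP SMADs *SMAD1* (126 and 61.3 CPM, log2 -1.04) and *SMAD9* (35.3 and 16.4, log2 -1.11), and *PMEPA1*, a feedback inhibitor (50.7 and 18.4, log2 -1.46). The remaining BMP SMAD, *SMAD5*, was near level at 47.6 and 49.6 CPM (log2 0.06). The coactivators *CREBBP* (249.8 and 265) and *EP300* (199.7 and 305) were abundant in both. Of 9 genes of receptor and SMAD turnover, 1 was higher and 0 lower past 2-fold, against the same shares of all genes. The ubiquitin ligase *NEDD4L* stood at 161 and 385 CPM (log2 1.26), and the deubiquitinase *USP9X* at 550 and 303.

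The 16 transcriptional targets, genes known to respond to TGF-beta or BMP in many cells, were all in both tables, with 7 higher and 3 lower past 2-fold in i3Ns, against 10.1% and 14.5% of all genes, and a median log2 ratio of 0.46. The 7 were *CCN1*, *CCN2*, *COL1A1*, *TAGLN*, *ACTA2*, *SNAI2* and *CDKN2B*, several of which are contractile or matrix genes that mesenchymal cells also express. *COL1A1* and *COL1A2* are in the mesenchymal list too. *COL1A1* stood at 30.5 and 93.9 CPM, and *SNAI2*, a repressor of epithelial genes, at 1.41 and 14.2 (log2 3.33). Those lower included the BMP targets *ID1* (log2 -2.38) and *ID3* (12.8 and 1.46 CPM, log2 -3.13). *ID2*, on the same list, went the other way but stayed within 2-fold (33.3 and 43.95 CPM, log2 0.399). *CDKN1A*, the cell cycle inhibitor p21, was near level at 145 and 140, as was *FN1*, fibronectin, at 67.0 and 51.3. The higher targets shared their direction with the summed mesenchymal markers, whose part in it was not tested.

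**Figure D5:**
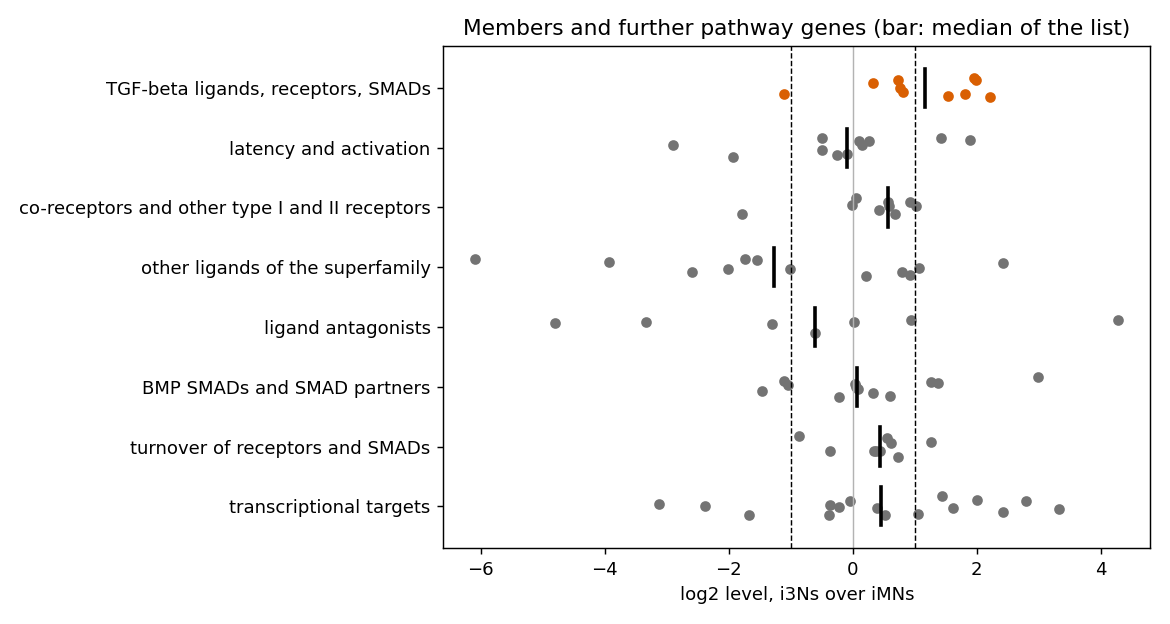
Log2 level in i3Ns over iMNs for the 10 genes (orange) and the further pathway genes in both tables (grey) by list, with black bars at list medians and dashed lines at 2-fold; vertical scatter within a row has no meaning. The 10 genes have the highest median, 1.18, and the other ligands of the superfamily the lowest, -1.27.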

How the data were processed

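Total RNA was depleted of ribosomal RNA and sequenced as paired ends. The authors trimmed reads with fastp, estimated transcript abundance by Salmon and tested the knockdown in DESeq2, and GEO's processing notes also name STAR and hg38. Tool versions, the transcript annotation and the filter on low counts are not given in the sources used here. Each deposited table, 1 per neuron type, holds a mean signal per gene, made by the authors as estimated counts divided by size factors and averaged over 6 libraries of both shRNA groups. It also holds 4 columns of the authors' own comparison (log2 fold change, its standard error, p-value and adjusted p-value), which were not used. The value columns of samples that could not be mapped numbered 0.

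A count test of SMN-KD against SCR had been planned and was not run, since no counts per library were at hand. Levels (means per 1000000 of their table's sum), ratios and percentiles were computed with pandas 2.3.3 and numpy 2.4.6 in Python 3.11.15, after the calculation was tested on simulated data. GENCODE release 44 (build GRCh38) gave transcript lengths and 1-based coordinates. Its gene identifiers lacked 693 of the iMN table and 878 of the i3N table. Per-length levels used MANE Select transcripts. A size of 2-fold was used for counts, and with no replicates a change of setting counted as moving a value when it passed 1.5-fold, or 10 percentile points. Genes named were the 10 genes and, from each pathway list, the 2 highest in each table and the 2 with the largest absolute log2 ratio with a mean of at least 50. The most similar genes were not sought, since each gene has only 1 pooled value per neuron type. The 10 genes and all lists were chosen with earlier results of these data known. The values of 1 gene of the list of transcriptional targets are not reported here, though it is in the counts of that list.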

Additional observations from a re-analysis of the deposited data

How the results depend on the processing

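No paired analysis was possible because only the authors' mean over the 6 libraries of a neuron type was used, with no value per library, and for the same reason the planned count tests of SMN-KD against SCR (with DESeq2, without a filter and without each replicate) were not run. No replicate could be left out, and the depth of a library is unknown. The count of the 10 genes past 2-fold in i3Ns, 5 higher and 1 lower, was the same with the deposited means as they stand, median-centred, over shared genes, without mitochondrial genes and with a mean of at least 10. All 10 genes have such means in both neuron types, so that last setting could not change their count. At 1.5-fold the count was 8 higher and 1 lower, against 19.6% and 23.2% of all genes. At 4-fold it was 1 higher (*TGFB1*) and 0 lower, against 3.22% and 5.75%. All 40 rescaled log2 ratios stayed within 1.5-fold of the reported ones, with a largest shift of 0.06. Each rescaling shifts every gene by the same constant, so this says nothing about how stable a single gene is. Under other gene sets 37 percentiles moved by under 10 points and 3 by more, all in i3Ns with a mean of at least 10 (*TGFB2* 34.2, *TGFBR2* 29.1 and *SMAD6* 13.2). Under other transcript lengths 36 ratios between genes stayed within 1.5-fold and 18 did not, which follows from the lengths themselves, and 2 crossed 1: *SMAD2* over *SMAD4* in i3Ns (0.596 to 1.27 and 2.78 with joined exons and coding lengths) and *SMAD4* over *SMAD7* in iMNs (0.973 to 1.97 with coding lengths). Each of the 10 genes has 1 identifier per table, so summing identifiers changed nothing for them.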
